A study of Drosophila simulans with 4 samples.

Results

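The transcripts described here encode enzymes that fruit flies use to handle alcohols and the aldehydes and acetate made from them, a set chosen by gene identifier and not by measured level. The list named 6 genes, and 4 of them were measured among the 15358 genes of the table: Aldh (FBgn0012036), AcCoAS (FBgn0012034), Fdh (FBgn0011768) and Gpdh (FBgn0001128). Adh (FBgn0000055) and Adhr (FBgn0000056) were not analysed here, so the first step of ethanol breakdown is missing from what follows. Gene symbols are those of the list that defined the set, because none of the identifiers matched the reference table of D. simulans genes.

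Fermenting fruit holds ethanol, and Drosophila feeds and breeds in it. Alcohol dehydrogenase, the product of Adh, turns ethanol into acetaldehyde. Aldehyde dehydrogenase, the product of Aldh, turns acetaldehyde into acetate, and acetyl-CoA synthetase, the product of AcCoAS, links acetate to coenzyme A so that it can be burnt or built into fat. Fdh encodes formaldehyde dehydrogenase, an alcohol dehydrogenase of class III that clears formaldehyde bound to glutathione. Gpdh encodes cytosolic glycerol-3-phosphate dehydrogenase, which links glycolysis to the glycerol backbone of lipids and to the energy supply of flight muscle.

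Whole-body RNA came from adult male D. simulans of 2 origins, Gotheron in France and Mayotte, with 2 libraries each and 4 in all. Males from Gotheron had been kept on apple, called natural medium, in 1 library and on cornmeal medium in the other, and males from Mayotte on banana, also called natural medium, in 1 library and on cornmeal in the other. Each library held 100 males, the offspring of as many wild-caught females, whose RNA came from 4 extractions that were pooled. The flies were not selected or mutant, so every difference between the populations is one of origin together with everything that differed between the collections. The natural medium was a different fruit in each population, and the methods say that bacteria had contaminated the one used in Mayotte. The labels give 7 days of growth, while the methods give a shorter time of aging.

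The deposited normalised counts have the same total in all 4 libraries. With the smallest non-zero value of each library taken as a single read, they come to between 9829895 and 10365609 reads on the listed genes. The paper reports a larger number of mapped reads per replicate. Reads came from the 3′ end of each transcript, so a count does not grow with gene length. With 2 libraries per population that also differ in medium, the spread within a population includes any effect of the medium. The labelled tissue could not be checked against marker genes, since none of the 30 marker symbols could be matched to an identifier. In whole-body RNA, fewer cells of a type and less RNA per cell cannot be told apart.

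All 4 genes were well expressed, with ranks between 145 and 1432 among 15358 genes in the individual libraries. Gpdh had the highest normalised count of the set in every library, Aldh the next, AcCoAS the third and Fdh the lowest, on the scale of 3′ counts. The order was the same in all 4 libraries, and the ranges of the 4 genes over the libraries did not overlap. Together the 4 genes took 0.223% and 0.238% of the counts in the Gotheron natural and cornmeal libraries, against 0.217% and 0.230% in the Mayotte natural and cornmeal libraries. Their summed share thus overlapped between the populations, and within each population it was lower on the natural medium.

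Aldh, the enzyme that removes acetaldehyde, was the gene of the set with the largest difference between the populations in the deposited scaling, and the difference did not pass the test. Its normalised count was 8030 and 7562 in the Gotheron natural and cornmeal libraries, against 5982 and 6156 in the Mayotte natural and cornmeal libraries. Both Gotheron libraries lay above both Mayotte libraries, with a mean of 7796 ± 331 in Gotheron and 6069 ± 123 in Mayotte (SD, n = 2 each). In limma, on the log2(normalised count + 1) scale, Gotheron minus Mayotte was 0.36 with a standard error of 0.17, and its Benjamini-Hochberg adjusted p was 0.389 over the 12508 genes whose mean reached 5. Its 95% interval ran from -0.03 to 0.75, that is from 0.979 to 1.68 times the Mayotte level. A rebuilt form of the study's 2-step procedure, an overdispersed Poisson model here with a Wald test and with no gene removed as an immunity gene, gave a log2 ratio of 0.36 (standard error 0.21, adjusted p = 0.383 over all listed genes). With the likelihood ratio test that the methods name, the adjusted p was 0.328 in the same model across all genes.

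Gpdh stood the other way, lower in Gotheron, and also missed the test. It had a normalised count of 9119 and 9237 in the Gotheron natural and cornmeal libraries, against 9984 and 11374 in the Mayotte natural and cornmeal libraries. The Gotheron libraries differed little from each other and both lay below the Mayotte libraries, of which the cornmeal library was the higher. The means were 9178 ± 82.8 in Gotheron and 10679 ± 983 in Mayotte (SD, n = 2 each). The limma difference was -0.22 (standard error 0.19, adjusted p = 0.625), with a 95% interval from -0.64 to 0.21, and the 2-step procedure gave -0.22 with an adjusted p of 0.697 in the model fitted across all genes. Without the Mayotte cornmeal library the limma difference was -0.12.

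**Figure D1:**
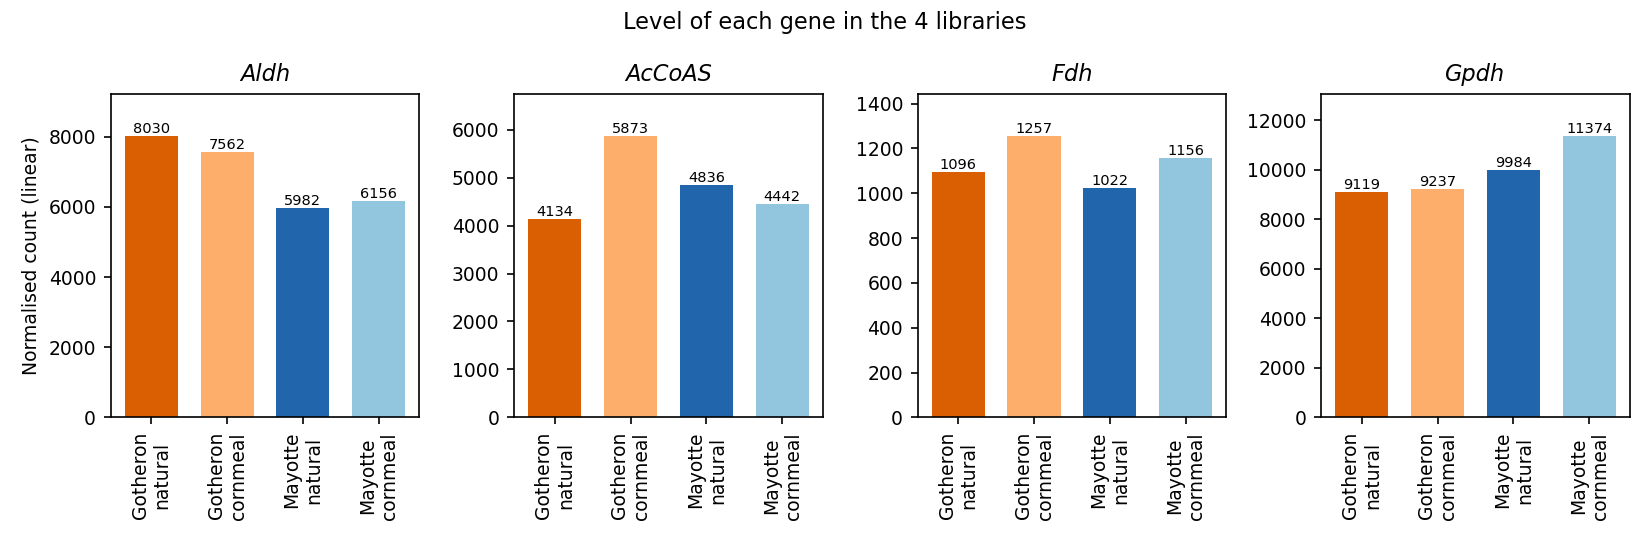
Normalised count (linear axis from 0, 1 panel per gene with its own scale) of Aldh, AcCoAS, Fdh and Gpdh in the Gotheron natural, Gotheron cornmeal, Mayotte natural and Mayotte cornmeal libraries, each bar being 1 library. The Gotheron bars of Aldh (8030 and 7562) stand above its Mayotte bars (5982 and 6156), those of Gpdh stand below, and those of AcCoAS and Fdh overlap with Mayotte.

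AcCoAS, which takes up the acetate that Aldh produces, had overlapping values in the populations. Its normalised count was 4134 and 5873 in the Gotheron natural and cornmeal libraries, against 4836 and 4442 in the Mayotte natural and cornmeal libraries. The Gotheron libraries held both the lowest and the highest value, so the standard deviation was 1229 in Gotheron around a mean of 5003, and 279 in Mayotte around a mean of 4639 (n = 2 each). The limma difference of 0.09 had a 95% interval from -0.39 to 0.56 (adjusted p = 0.880), which allows a level in Gotheron from 0.764 to 1.48 times that in Mayotte. Without the Gotheron cornmeal library the limma difference turned to -0.16, and without the Gotheron natural library it was 0.34.

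Fdh, the formaldehyde enzyme, was the least abundant of the set and its populations overlapped as well. It had 1096 and 1257 in the Gotheron natural and cornmeal libraries, against 1022 and 1156 in the Mayotte natural and cornmeal libraries. The means were 1176 ± 113 in Gotheron and 1089 ± 94.3 in Mayotte (SD, n = 2 each). The limma difference was 0.11, with a 95% interval from -0.25 to 0.47 (adjusted p = 0.774), or 0.842 to 1.38 times the Mayotte level. It was 0.013 without the Gotheron cornmeal library and 0.022 without the Mayotte natural library, and 0.21 without the Gotheron natural library and 0.20 without the Mayotte cornmeal library.

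Of the 4 genes, 0 passed the 2-step procedure, which called 5.22% of all 15358 genes, and 0 passed limma, which called 1.09% of the genes it tested. At an unadjusted p under 0.05 the count for the set was also 0 in both, where 16.6% of all genes passed in the 2-step procedure and 14.0% in limma. The quasi-likelihood test of edgeR on the 3 libraries with recovered reads called 0 of the 4, and 5.65% of the genes tested. The populations were apart, with no overlap of their libraries, in 2 of the 4 genes, against 44.2% of all genes and 52.6% of the 1552 genes whose mean reached 1000. Gotheron lay above Mayotte in this way in 1 gene, Aldh, against 30.8% of all genes, and below it in 1 gene, Gpdh, against 13.4%. The median absolute limma difference was 0.16 over the set and 0.24 over all 12508 genes tested. It was 0.22 over the 1552 genes whose mean reached 1000, as the mean of all 4 genes did. An exact two-sided permutation test on 1 gene could reach at best a p of 0.333 with 2 libraries on each side.

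The direction of the small differences depended on how the libraries were set level. In the deposited scaling the median limma difference of all genes tested was 0.12, a slight excess in Gotheron across the table. TMM scaling, which levels the bulk of the genes, brought that median to -0.0040. Under TMM the log2 ratio of Gotheron over Mayotte was 0.23 for Aldh and -0.35 for Gpdh, and both genes still had the populations apart, as had 40.8% of all genes under TMM. Fdh was at -0.016 and AcCoAS at -0.020 under TMM, while both were at 0.11 in the deposited scaling in the 2-step procedure. Under TMM Gpdh stood further from 0 than Aldh, in the opposite order to the deposited scaling.

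**Figure D2:**
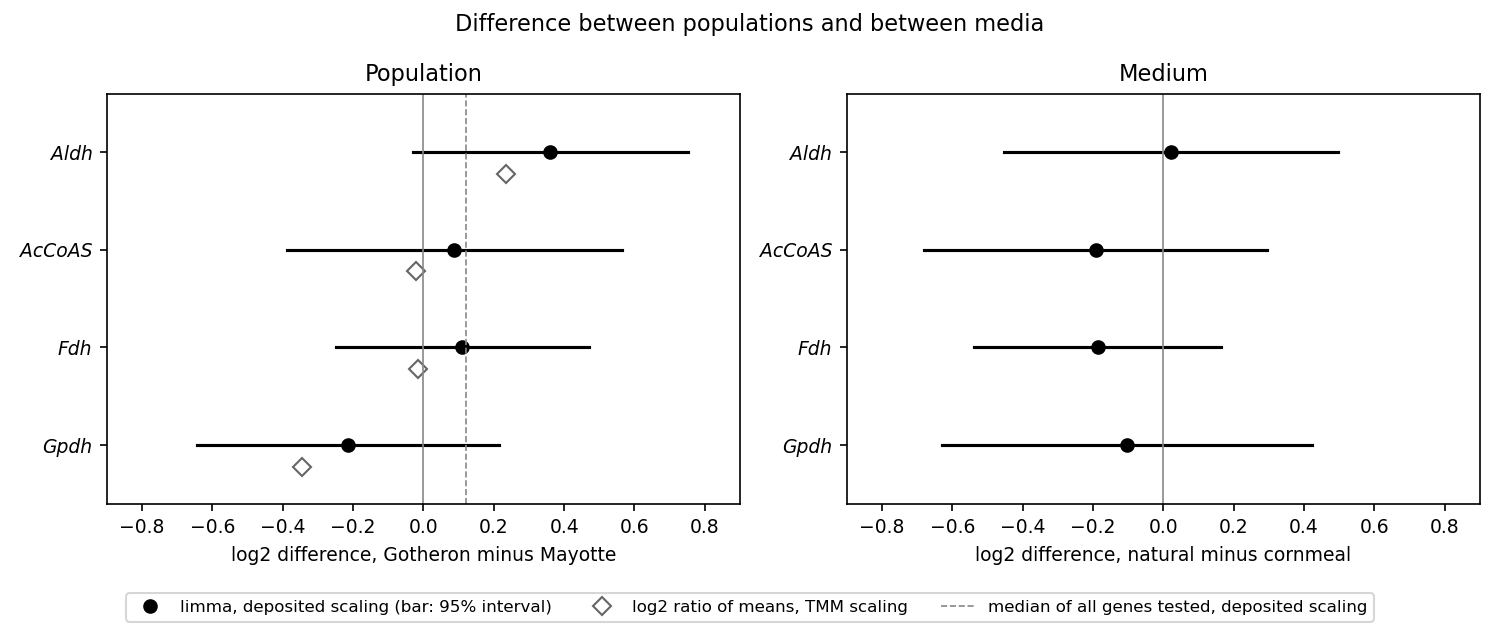
Left, log2 difference of Gotheron minus Mayotte for each gene (black points, limma, bars are 95% intervals; open diamonds, log2 ratio of means under TMM scaling; dashed line, median of all genes tested). Right, the limma difference of natural minus cornmeal medium with its 95% interval. All 8 intervals include 0, and Aldh (0.36) and Gpdh (-0.22) lie on opposite sides of it in the left panel.

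Ratios between genes of one library do not depend on the scaling, and the ratio of Aldh to Gpdh separated the populations most. It was 0.881 and 0.819 in the Gotheron natural and cornmeal libraries, against 0.599 and 0.541 in the Mayotte natural and cornmeal libraries. The Gotheron ratio was 1.49 times that of Mayotte, a log2 difference of 0.58 beside standard deviations of 0.07 in Gotheron and 0.10 in Mayotte (n = 2 each). Each Gotheron library thus held more Aldh per Gpdh transcript than either Mayotte library, on each medium. Both Gotheron libraries lay above Mayotte for Aldh and below it for Gpdh. The separation of their ratio follows from those values and is not a separate result. The exact permutation p of this ratio was 0.333, the smallest that 2 against 2 libraries allow, and it was 0.667 after Benjamini-Hochberg adjustment over the 6 ratios of the set.

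Fdh relative to Gpdh also stood apart, at 0.120 and 0.136 in the Gotheron natural and cornmeal libraries, against 0.102 and 0.102 in the Mayotte natural and cornmeal libraries. Fdh relative to Aldh was lower in both Gotheron libraries, at 0.137 and 0.166 on natural and cornmeal medium, against 0.171 and 0.188 in Mayotte. Of the 6 ratios, 3 had the populations apart, beside 50.3% of all pairs of genes whose means reached 1000, so the count is near that of any pair of abundant genes.

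The 3 ratios with AcCoAS on one side overlapped between the populations. Aldh over AcCoAS, consecutive steps from acetaldehyde to acetyl-CoA, was 1.94 and 1.29 in the Gotheron natural and cornmeal libraries, against 1.24 and 1.39 in the Mayotte natural and cornmeal libraries. The Gotheron natural library stood above the other 3, which lay close together.

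**Figure D3:**
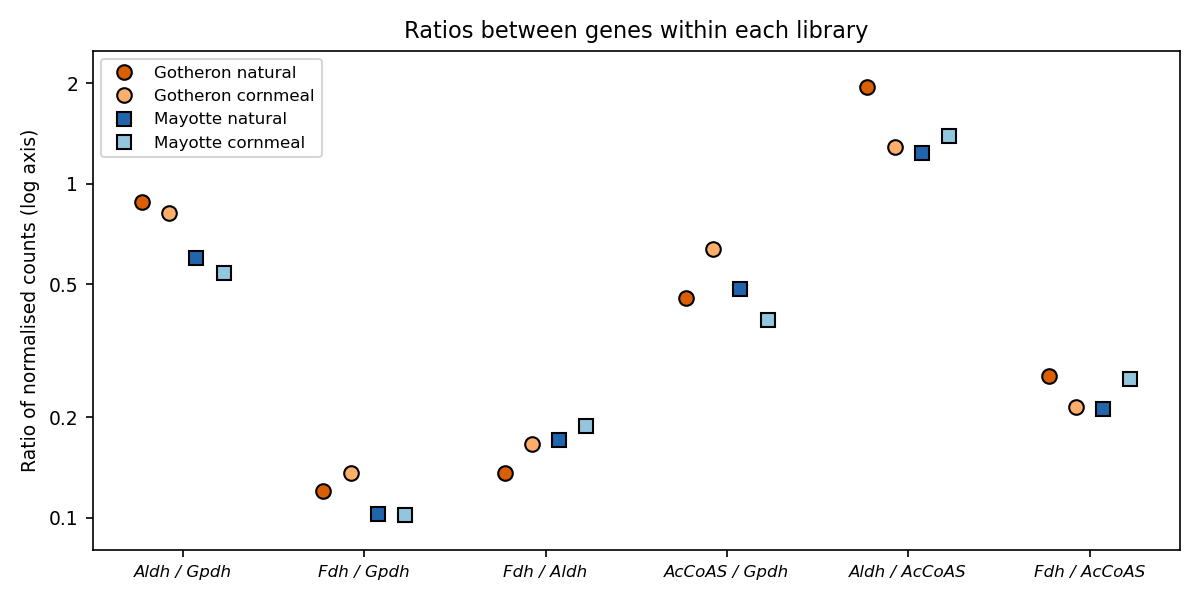
Ratio of the normalised counts of each pair of genes within a library (log axis), with circles for Gotheron and squares for Mayotte, dark for natural and light for cornmeal medium. The Gotheron circles of Aldh over Gpdh (0.881 and 0.819) lie above the Mayotte squares (0.599 and 0.541), while the points of the pairs with AcCoAS mix.

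The medium was the other factor of the design, with fruit against cornmeal in each population. Fdh had the natural library below the cornmeal library in both, at 0.872 times the cornmeal level in Gotheron and 0.885 times in Mayotte. It was the 1 gene of the 4 whose 2 natural libraries both lay on one side of the 2 cornmeal libraries, against 27.0% of all genes, and 14.8% of all genes with the natural libraries below. The difference of natural minus cornmeal for Fdh was -0.19 on the log2 scale in limma with population as a term, with a 95% interval from -0.54 to 0.16 (adjusted p = 0.907).

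AcCoAS had the largest single step between media of the set. In Gotheron its natural library had 0.704 times the level of the cornmeal library, and in Mayotte 1.09 times. On the log2 scale these steps were -0.51 in Gotheron, where the standard deviation of the same step over the 1552 genes whose mean reached 1000 was 0.40, and 0.12 in Mayotte, where it was 0.31. Each step compares 1 library with 1 and has no replicate check.

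Aldh had the smallest step in Mayotte, and Gpdh the smallest in Gotheron but the largest in Mayotte. The natural library of Aldh had 1.06 times the level of the cornmeal library in Gotheron and 0.972 times in Mayotte. For Gpdh the same ratios were 0.987 in Gotheron and 0.878 in Mayotte. The limma differences of natural minus cornmeal were 0.02 for Aldh (95% interval -0.45 to 0.50), -0.19 for AcCoAS (-0.68 to 0.30) and -0.10 for Gpdh (-0.63 to 0.42).

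**Figure D4:**
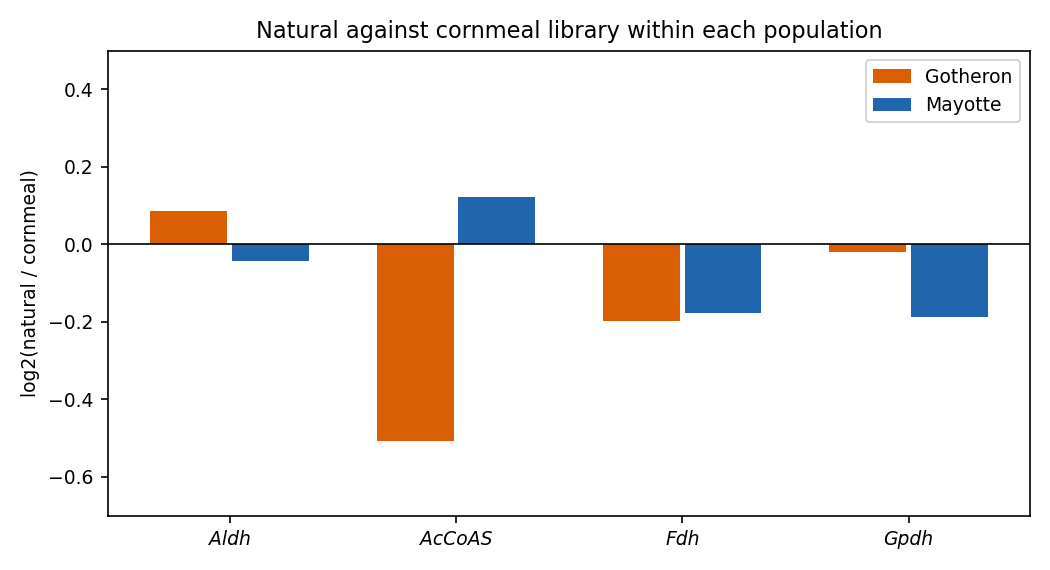
Log2 ratio of the natural over the cornmeal library for each gene, with Gotheron in orange and Mayotte in blue and 1 library on each side of each ratio. The bars of Fdh point down in both populations, and the bar of AcCoAS in Gotheron reaches -0.51 while that in Mayotte is 0.12.

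For the medium, 0 of the 4 genes passed the 2-step procedure, which called 0.723% of all genes, and 0 passed limma, which called 0.0160% of the genes tested. At an unadjusted p under 0.05 the count for the set was 0 in both tests, where 8.45% of all genes passed in the 2-step procedure and 6.89% in limma. Whether the step between media differed between the populations was tested as the interaction at the dispersion of the Loess curve, which called 0.508% of all genes and 0 of these 4. With 1 library for each population and medium this test has no residual degrees of freedom of its own, and its spread is that of genes of like mean over all 4 libraries, so it has no replicate check either. AcCoAS came closest, with an interaction of -0.63 on the log2 scale (adjusted p = 0.792 in the model fitted across all genes). The interactions were 0.13 for Aldh, 0.17 for Gpdh and -0.02 for Fdh.

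Within each medium 1 library of each population can be set side by side. On natural medium AcCoAS in Gotheron was 0.855 times the Mayotte level and on cornmeal medium 1.32 times. Aldh was higher in Gotheron on both media, at 1.34 times on natural and 1.23 times on cornmeal medium, and Fdh was at 1.07 and 1.09 times. Gpdh was at 0.913 times on natural and 0.812 times on cornmeal medium.

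Counting error was set beside the steps between media in Mayotte. In the 3 libraries whose recovered reads were accepted, an exact binomial 95% interval was taken for each gene's share of the reads. It reached between 1.86% and 6.09% of the share to either side, the widest being for Fdh. These intervals cover counting error only. The intervals of Aldh in the Mayotte natural and cornmeal libraries overlapped, at 0.0580% to 0.0610% and 0.0597% to 0.0628%. Those of AcCoAS and Gpdh in the same libraries did not overlap, and those of Fdh narrowly did not. Each Aldh share in Mayotte (0.0595% natural, 0.0612% cornmeal) still lay outside the interval of the other. Overlap of intervals does not test the step. In Gotheron the media could not be compared in this way, since the natural library had no interval. For Aldh the share was 0.0752% (95% interval 0.0735% to 0.0769%, from 7468 reads) in the Gotheron cornmeal library, against 0.0612% (0.0597% to 0.0628%, from 6020 reads) in the Mayotte cornmeal library.

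The spread of each gene over the 4 libraries, as a Pearson dispersion around 1 common mean, was 149 for Aldh and 119 for AcCoAS, against 141 and 90.1 on the curve of genes with the same mean. Gpdh and Fdh spread less than the curve, with 108 against 224 for Gpdh and 8.66 against 17.8 for Fdh. The 2-step test used the value of the curve, so its standard errors for Gpdh and Fdh are wider than their own spread would give. Spread around 1 common mean includes any difference between the populations. For Aldh the means were 7796 in Gotheron and 6069 in Mayotte, with SDs of 331 and 123 within them (n = 2 each). The closeness of Aldh to the curve thus does not describe its spread within populations.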

How the data were processed

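The authors sequenced the 3′ ends of cDNA, trimmed the reads with seqclean and mapped 32-mers with ELAND, allowing 2 mismatches, first to D. melanogaster and next to D. simulans, with D. simulans genes moved to their ortholog. For builds and versions, the sources used here give none. The deposited values are a signal on a linear scale, read counts multiplied by 1 factor per library so that totals are equal. In all 4 libraries 100% of the values were whole reads within 0.01. Those of the Gotheron natural library, whose factor is close to 1, were set aside by choice and not accepted as recovered reads. The labels give no replicate numbers, and cornmeal is replicate 1 here.

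The 2-step procedure (Pearson dispersion around 1 mean, R 4.3.3 loess with span 0.75 and degree 2, Wald test, Benjamini-Hochberg at 0.05, libraries of the populations not overlapping) was run on all listed genes, with none removed as an immunity gene, a step the study took. The methods name a likelihood ratio test, tried as an alternative. Limma 3.58.1 was run with a trended prior on log2(normalised count + 1), leaving out genes whose mean was below 5. edgeR 4.0.16 on recovered reads called 707 of 12508 genes in the 3 accepted libraries, where Gotheron has 1 library and is assumed to vary like Mayotte. TMM factors came from edgeR.

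The members and lists were chosen with earlier results of these data known. The 6 list genes were to be named, with the 2 genes, of a mean of 100 or more, closest in pattern to Adh. Adh was not analysed, so that rule could not be used. Of 24 symbols of other pathway genes and 30 marker symbols, 0 matched the table of assembly Prin_Dsim_3.1, which holds none of the 15358 identifiers, so these lists were not used. The 2 libraries of a population differ in medium and in the females they descend from, so p-values rest on a spread that mixes both. Quantile normalization and a quadratic curve for the medium were added after the data were seen.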

Additional observations from a re-analysis of the deposited data

How the results depend on the processing

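Over 168 values of the 4 genes under other settings, 0 passed an adjusted p of 0.05. The lowest adjusted p was 0.101, for Aldh in the 2-step procedure with the dispersion estimated within populations, against 0.383 in the main fit. Aldh stayed higher and Gpdh lower in Gotheron in all 14 alternatives of each population test, at 0.18 to 0.40 and -0.35 to -0.12 on the log2 scale. Several of these alternatives could not move a direction. Settings of the test, the dispersion, the filters or the block left the log2 value as in the main fit. Only scalings, pseudocounts, edgeR on 3 libraries, quantile normalization and libraries left out could move it. The 168 values include such repeats. The direction turned in 16 values, none of them called. For the population, Fdh was -0.016 under TMM scaling in both tests, and under median-of-ratios scaling -0.0094 in the 2-step procedure and -0.010 in limma. AcCoAS was -0.020 and -0.014 under these scalings in the 2-step procedure and -0.039 and -0.033 in limma. Under quantile normalization, added after the data were seen, they were -0.00067 and -0.0040. Without Gotheron replicate 1, the cornmeal library, AcCoAS was -0.17 in the 2-step procedure and -0.16 in limma, against 0.34 in both without Gotheron replicate 2, the natural library. For the medium, Aldh ranged from -0.20 without Gotheron replicate 2 to 0.23 without Mayotte replicate 2, and was -0.11 without Mayotte replicate 1. AcCoAS ranged from -0.39 without Mayotte replicate 1 to 0.014 without Gotheron replicate 1, and Gpdh from -0.25 without Gotheron replicate 1 to 0.048 without Mayotte replicate 1. The log2 difference of Aldh over Gpdh was 0.50 to 0.65 with 1 library left out.

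The number of genes called over the whole table moved more than these values. In the 2-step population test it was 801, 1970 with the dispersion within populations, 0 with a dispersion per gene and an F test (1209 at an unadjusted p under 0.05), and 608 to 1350 with 1 library left out, the highest without Gotheron replicate 1. In limma it was 136, 34 with no filter, 13 with 1 prior variance, 707 in edgeR on 3 libraries, and 61 to 1086 with 1 library left out. Leaving out Gotheron replicate 1 gave 1086, Gotheron replicate 2 gave 943 and Mayotte replicate 2 gave 61. The labels share no replicate numbers. With the medium as a replicate block limma called 314. The 2-step procedure took no block term under this setting, so it repeated the main fit by construction and did not test blocking. For the medium the 2-step count was 111, and 307 to 647 with any 1 library left out, and the limma count was 2, 0 with no term for population (287 at an unadjusted p under 0.05) and 8 under TMM. The interaction count was 78, and 121 under TMM. The cause was not tested.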
